A study of Homo sapiens with 16 samples.

Results

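The response of LNCaP cells to the androgen dihydrotestosterone (DHT) in the absence of any antagonist was taken as the comparison of 2 DHT libraries with 2 vehicle (VEH) libraries, 4 of the 16 libraries of the series. LNCaP is an established human prostate cancer line, here the FGC clone, so each group is a culture of 1 clone and the 2 libraries of a group are labelled as biological repeats. All cultures had 72 h in medium containing 5% fetal bovine serum, and then 48 h with 5% charcoal-stripped serum, from which steroids have been removed. VEH cells then received ethanol and DMSO, the solvents of the hormone and of the antagonists, and DHT cells received 10 nM DHT in ethanol. RNA was taken after 48 h, and polyadenylated RNA was sequenced. The libraries with bicalutamide (BIC), enzalutamide (ENZ) and apalutamide (APA), 12 in all, served to estimate the spread and for 1 contrast given at the end. The comparison asks which genes and functions change when androgen is returned to androgen-deprived cells. Values are given as replicate 1 and then replicate 2, which carry the numbers 3 and 7 in the labels.

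DHT acts through a nuclear receptor that binds DNA at a response element made of a pair of short hexamers. There it recruits coactivators and the transcription machinery, often beside pioneer factors such as FOXA1 that open chromatin. In the prostate the receptor maintains the secretory luminal epithelium, which releases kallikrein proteases, zinc, citrate and polyamines into seminal fluid. In prostate cancer cells it also drives lipid synthesis and division, and it lowers the transcription of enzymes that inactivate androgens.

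As examples of motifs near start sites, 4 promoters are printed below from RefSeq (GRCh38.p14). Each covers 250 bases before the start to 50 after it, 5′ to 3′ on the gene's strand. They were picked for holding a motif, and the next paragraph gives the shares of promoters that do. Capitals mark the androgen response hexamer AGAACA in KLK3 (chr19:50854665-50854964, plus strand) and PLA2G2A (chr1:19979569-19979868, minus strand). In LINC00844 (chr10:58999268-58999567, plus strand) they mark the hexamer with TGT 3 bases after it. In MCM6 (chr2:135876394-135876693, minus strand) they mark 2 copies of TTTGGCGC, an E2F site. KLK3 was among the genes that rose most and PLA2G2A among those that fell most. LINC00844 is an androgen-responsive noncoding RNA, and MCM6 is a replication gene.
KLK3: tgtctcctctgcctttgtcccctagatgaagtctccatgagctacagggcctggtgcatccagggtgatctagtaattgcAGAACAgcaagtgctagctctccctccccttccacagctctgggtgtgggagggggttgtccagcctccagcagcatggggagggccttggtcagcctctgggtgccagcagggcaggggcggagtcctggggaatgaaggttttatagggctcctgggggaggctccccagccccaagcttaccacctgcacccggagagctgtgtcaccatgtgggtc
LINC00844: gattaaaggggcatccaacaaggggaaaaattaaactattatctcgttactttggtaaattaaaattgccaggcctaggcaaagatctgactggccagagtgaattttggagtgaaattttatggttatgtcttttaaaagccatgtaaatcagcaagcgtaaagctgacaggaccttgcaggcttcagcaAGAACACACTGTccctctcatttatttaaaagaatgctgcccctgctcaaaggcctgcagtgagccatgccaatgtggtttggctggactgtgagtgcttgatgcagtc
PLA2G2A: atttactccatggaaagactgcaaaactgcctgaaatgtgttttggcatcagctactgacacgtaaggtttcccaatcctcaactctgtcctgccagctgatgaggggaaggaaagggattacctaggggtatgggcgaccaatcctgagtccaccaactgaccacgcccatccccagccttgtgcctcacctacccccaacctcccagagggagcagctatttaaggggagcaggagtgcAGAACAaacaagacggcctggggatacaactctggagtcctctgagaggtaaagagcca
MCM6: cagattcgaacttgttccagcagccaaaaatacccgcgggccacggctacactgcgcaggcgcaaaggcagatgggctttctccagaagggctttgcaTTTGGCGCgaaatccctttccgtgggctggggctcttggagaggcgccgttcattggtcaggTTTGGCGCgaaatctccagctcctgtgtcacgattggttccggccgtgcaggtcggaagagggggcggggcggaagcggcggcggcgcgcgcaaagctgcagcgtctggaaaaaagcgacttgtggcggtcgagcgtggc

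Promoters were listed for 10757 of the 16636 tested genes, with 15484 start sites in all, and motifs were searched on both strands. The hexamer was present in 9.84% of these promoters, in 9.58% of the promoters of genes called higher with DHT and in 9.63% of those called lower. Among genes that differed by at least 4-fold it was present in 18.0% of promoters (11 of 61) in each direction. With TGT 3 bases after it, the hexamer was held by 0.123% of all tested promoters and by 5 of 1890 promoters of genes called higher, and with TGTTCT in that place by 0 of all 15484. TTTGGCGC was held by 10 of 71 promoters of DNA replication genes (14.1%), against 0.943% of all tested promoters. Over all 35116 start sites of the RefSeq table the hexamer was held by 14.8% and TTTGGCGC by 0.652%. The forkhead motif TGTTTAC was held by 4 of 61 promoters of genes lower by at least 4-fold, by 0 of 61 higher by at least 4-fold and by 2.69% of all tested promoters. The sterol element TCACNCCAC was held by 1 of 26 promoters of cholesterol synthesis genes and by 1.03% of all tested promoters, and the ATF4 composite motif TGATGNAAT by 3 of 50 promoters of amino acid genes, all of 1 gene, and by 0.517%. These counts describe letters in a window and were not tested.

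The libraries were close within each group, with a Pearson r across genes of 0.980 in VEH and 0.981 in DHT on log2(TPM + 1). TPM is a transcript level divided by gene length and scaled to the library total. The deposited columns summed to between 976190 and 983114 TPM over the 16 libraries, and shares of TPM are of each column's own sum. Between 14652 and 15242 genes reached a TPM of 1. Mitochondrial genes held 16.6 and 15.9% of the total in VEH and 22.3 and 14.7% with DHT, so DHT replicate 1 stood apart in this respect. All 11 luminal prostate markers, among them KRT8, KRT18, HOXB13 and FOXA1, reached a TPM of 1 in all 4 libraries, with a summed level of 2613 and 2304 TPM (VEH) against 8006 and 5874 TPM (DHT). Basal markers summed to between 0.06 and 1.92 TPM, endothelial markers to between 1.06 and 1.64 TPM, immune markers to between 1.52 and 7.0 TPM and neuroendocrine markers to between 1.31 and 2.33 TPM. PECAM1, CD3E, CD14, CHGA, INSM1 and NEUROD1 were listed at 0 in all 4 libraries.

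DHT changed a large part of the transcriptome in both directions. With limma (replicate number as a block, Benjamini-Hochberg adjusted p under 0.05), 4559 of 16636 genes were called, which is 27.4%. Of these, 1762 were higher (10.6% of tested genes) and 2797 lower (16.8%), and 988 differed by at least 2-fold on the log2(TPM + 1) scale (441 higher and 547 lower). At least 4-fold were 60 higher and 61 lower. Each of the 4559 genes moved the same way in both replicate pairs, against 77.7% of all tested genes. This agreement follows largely from the selection, because the calls rest on the same pairs. Groups that did not overlap were found for 3331 genes higher and 6062 lower, so lack of overlap alone was far more common than a call. Where groups are said below to lie apart, this is to be read beside these counts. Without the block, limma called 1709 genes, which all were among the 4559. With median-ratio scaling in place of TPM totals, log2 differences shifted by 0.107 on the median and the split turned, with 2868 of 5046 calls higher (56.8%, against 38.6%). All 1762 genes called higher were called higher there as well, as 2178 of the 2797 called lower were called lower. Counts under this scaling, and without the block, are given with each list in which the count of either direction moved by 1.5 times or more. Each list count below is to be read beside the shares over all tested genes, 10.6% higher and 16.8% lower.

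**Figure D1:**
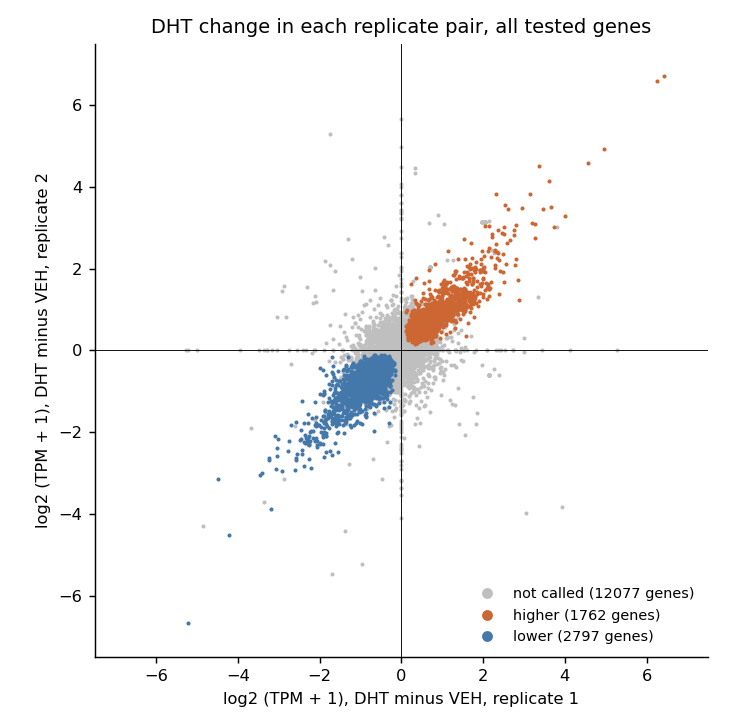
Log2(TPM + 1) difference, DHT minus VEH, of every tested gene in replicate pair 1 (x axis) and pair 2 (y axis), with 1762 genes called higher in orange, 2797 called lower in blue and the others in grey. The called genes lie toward the upper right and lower left corners, and KLK2 and KLK3 are the pair at the upper right end.

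Among protein-coding genes (by RefSeq symbol), 1558 of 12223 were called higher and 2236 lower. Among long noncoding RNAs, 50 of 838 were called higher and 169 lower, and the 2 classes were not compared by a test. In share of all TPM, the genes called higher went from 9.34 and 9.63% in VEH to 15.2 and 16.1% with DHT, and those called lower went from 19.7 and 18.96% to 12.3 and 13.1%. These shares follow from the selection and describe only how much of the RNA pool the calls hold. Genes that were called and abundant included ALDOA, a glycolytic enzyme (log2 difference 0.37, SE 0.11, adjusted p 0.023), NPM1, a nucleolar chaperone (log2 difference 0.46, SE 0.08, adjusted p 0.0019), the ER oxidoreductase P4HB (log2 difference 0.52, SE 0.11, adjusted p 0.0052) and the actin-binding PFN1 (log2 difference 0.34, SE 0.09, adjusted p 0.014) on the higher side. On the lower side were EEF1A1, an elongation factor (log2 difference -0.55, SE 0.10, adjusted p 0.0019), and RPS2, RPS18 and RPL7A of the ribosome with log2 differences between -0.41 and -0.26. The calls of RPS2, RPS18 and RPL7A were lost under median-ratio scaling, and those of the other 5 genes were not.

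The kallikreins led the genes that rose. KLK3, the gene of prostate-specific antigen (chromosome 19, 50854915 to 50860764, GRCh38.p14), stood at 53 and 24 TPM (VEH) against 4102 and 2422 TPM (DHT). KLK2, its neighbour (chromosome 19, 50873439 to 50880567), stood at 4.78 and 3.6 TPM (VEH) against 494 and 484 TPM (DHT). KLK4, the third prostate kallikrein (chromosome 19, 50906351 to 50911395), stood at 42 and 22.1 TPM (VEH) against 523 and 407 TPM (DHT). In all 3 genes both DHT libraries lay far above both VEH libraries, and the fitted log2 differences were 6.42 (SE 0.32) for KLK3, 6.57 (SE 0.41) for KLK2 and 3.88 (SE 0.24) for KLK4, with limma adjusted p of 5.9e-07, 2.7e-06 and 2.5e-06. KLK2 and KLK3 together took 0.00589 and 0.00281% of all TPM in VEH and 0.468 and 0.296% with DHT. The 2 genes are close paralogs, and reads that fit both could have been divided between them in the counting.

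Of 32 genes known to be induced by androgen, 28 were called higher and 0 lower, with a median log2 difference of 2.06, against -0.10 over all tested genes. The list was drawn up with results of these data known, so its direction is not independent evidence. TMPRSS2, a membrane protease whose promoter is fused to ETS genes in many prostate tumours, stood at 46.4 and 31.1 TPM (VEH) against 429.5 and 279 TPM (DHT) (log2 difference 3.15, SE 0.11, adjusted p 7.1e-08). FKBP5, a co-chaperone of steroid receptors, stood at 12 and 13.5 TPM (VEH) against 81.4 and 92.8 TPM (DHT) (log2 difference 2.68, SE 0.12, adjusted p 3.5e-07). SLC45A3, or prostein, stood at 23.3 and 20.7 TPM (VEH) against 133 and 159 TPM (DHT) (log2 difference 2.67, SE 0.12, adjusted p 3.5e-07). In these 3 genes the groups lay apart by several times the distance between replicates. PGC, which encodes the protease precursor progastricsin, was close to the bottom of the scale in VEH and stood at 0.42 and 0.04 TPM (VEH) against 43.3 and 30.8 TPM (DHT) (log2 difference 4.95, SE 0.20, adjusted p 1.9e-07). CHRNA2, a nicotinic receptor subunit, stood at 0.34 and 0.41 TPM (VEH) against 30.6 and 32.6 TPM (DHT) (log2 difference 4.57, SE 0.20, adjusted p 2.2e-07). CAMKK2, a kinase known as an androgen target, did not pass the test, at 28.4 and 27.9 TPM (VEH) against 27.8 and 35.4 TPM (DHT) (log2 difference 0.15, SE 0.12, adjusted p 0.40), but was called higher under median-ratio scaling (adjusted p 0.045).

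**Figure D2:**
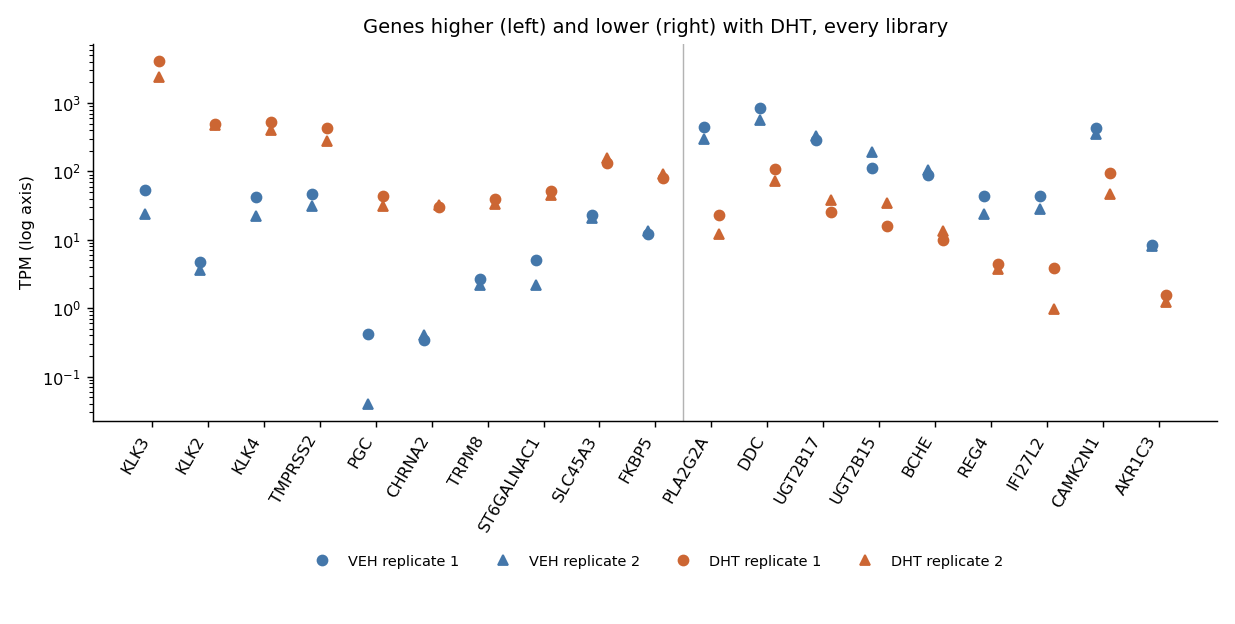
TPM on a log axis of 10 genes higher and 9 genes lower with DHT, with VEH in blue, DHT in orange, circles for replicate 1 and triangles for replicate 2. No VEH point of any of these genes lies on the DHT side, KLK3 reaches the highest level, and PGC and CHRNA2 start below 1 TPM.

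Further genes rose from low levels. TRPM8, a cold-activated calcium channel, stood at 2.64 and 2.18 TPM (VEH) against 39.1 and 33.8 TPM (DHT) (log2 difference 3.46, SE 0.19, adjusted p 1.1e-06). TUBA3D, a tubulin with close paralogs, stood at 0.3 and 0.14 TPM (VEH) against 12.3 and 25 TPM (DHT) (log2 difference 3.93, SE 0.26, adjusted p 3.9e-06). ORM1, an acute-phase carrier protein with a near-identical neighbour, stood at 0.07 and 0.12 TPM (VEH) against 13.3 and 8.1 TPM (DHT) (log2 difference 3.38, SE 0.23, adjusted p 4.2e-06). GNMT, a liver-type glycine methyltransferase that uses up methyl groups, stood at 7.87 and 8.05 TPM (VEH) against 84.2 and 76.8 TPM (DHT) (log2 difference 3.18, SE 0.21, adjusted p 3.7e-06). The noncoding RNA LINC00844, whose promoter is printed above, stood at 0.32 and 0.37 TPM (VEH) against 15.7 and 14.7 TPM (DHT) (log2 difference 3.59, SE 0.45, adjusted p 0.00025). All 5 were low in both VEH libraries and more than 9 times higher in both DHT libraries. The rule for the genes with the largest differences, which admits only groups that do not overlap, also took AC092718.4, ZNF812P and TRIM49D2. Their log2 differences were 3.65, 3.21 and 3.07. TRIM49D2 belongs to a family of near-identical copies and differed between the DHT libraries, at 4.28 and 16.9 TPM.

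Of 12 tested genes for prostate secretory proteins, 7 were called higher and 2 lower (median log2 difference 1.80), and 7 and 1 under median-ratio scaling and without the block. MSMB, the beta-microseminoprotein of seminal plasma, was low throughout at 0.58 and 0.24 TPM (VEH) against 2.12 and 2.18 TPM (DHT) (log2 difference 1.17, SE 0.25, adjusted p 0.0061). PLA2G2A, a secreted phospholipase, and NUCB2, a calcium-binding protein, were the members called lower (log2 difference -0.32, SE 0.11, adjusted p 0.048). The call of NUCB2 was lost under median-ratio scaling.

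PLA2G2A (chromosome 1, 19975431 to 19980434) had the largest fall among genes above 0 in every library. It stood at 448 and 301 TPM (VEH) against 23.1 and 12.3 TPM (DHT) (log2 difference -4.37, SE 0.09, adjusted p 1.6e-09). All 11 tested members of the list of androgen-repressed genes, which also was compiled with results of these data known, were called lower, with a median log2 difference of -2.54. IFI27L2, a mitochondrial protein of the interferon-inducible family, stood at 44 and 27.9 TPM (VEH) against 3.89 and 0.97 TPM (DHT) (log2 difference -3.54, SE 0.16, adjusted p 3.5e-07). BCHE, a serum-type cholinesterase, stood at 89.4 and 106 TPM (VEH) against 9.84 and 13.4 TPM (DHT) (log2 difference -2.98, SE 0.11, adjusted p 1.2e-07). Both VEH libraries lay far above both DHT libraries in each of them. CCDC80, a matrix protein, stood at 17.4 and 21.6 TPM (VEH) against 2.04 and 1.96 TPM (DHT) (log2 difference -2.77, SE 0.13, adjusted p 4.3e-07). AOC1, which degrades histamine and putrescine, stood at 24.9 and 9.38 TPM (VEH) against 1.75 and 0.61 TPM (DHT) (log2 difference -2.96, SE 0.24, adjusted p 1.7e-05). REG4, a secreted lectin, stood at 44.2 and 24.1 TPM (VEH) against 4.46 and 3.79 TPM (DHT) (log2 difference -2.72, SE 0.29, adjusted p 9.1e-05). PCDH11X, a protocadherin, stood at 5.9 and 6.74 TPM (VEH) against 0.16 and 0.2 TPM (DHT) (log2 difference -2.63, SE 0.35, adjusted p 0.00035). In these 4 genes both DHT libraries lay far below both VEH libraries. The rule for the largest falls took only called genes whose groups did not overlap, so such separation was required by it. LINC02672 and AC091179.3 also were among the 15 largest falls, with log2 differences of -2.81 and -3.82. AC242498.1 (36.3 and 102 TPM in VEH), SNORA78 (9.62 and 6.95 TPM) and RNA5SP352 (8.39 and 5.24 TPM) were listed at 0 in both DHT libraries, and no fold against VEH is given for them because a 0 in this table can be a failed estimate.

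Nuclear receptors and coregulators were lower or did not pass the test. Of 21 tested nuclear receptors and coregulators, 0 were called higher and 9 lower (median log2 difference -0.38), and under median-ratio scaling 1 higher and 5 lower (0 and 0 without the block). GATA2, a zinc finger factor of the prostate epithelium, stood at 341 and 272 TPM (VEH) against 217 and 189 TPM (DHT) (log2 difference -0.58, SE 0.11, adjusted p 0.0026). FOXA1, which opens chromatin, stood at 219 and 226 TPM (VEH) against 156 and 172 TPM (DHT) (log2 difference -0.44, SE 0.14, adjusted p 0.042), and HOXB13, a prostate homeobox factor, at 258 and 189 TPM (VEH) against 164 and 149 TPM (DHT) (log2 difference -0.49, SE 0.14, adjusted p 0.026). In these 3 genes both DHT libraries were below both VEH libraries, by less than 2-fold on average. The coactivators NCOA2 (log2 difference -1.01, SE 0.30, adjusted p 0.029) and NCOA3 (log2 difference -0.63, SE 0.21, adjusted p 0.044) also fell. The calls of FOXA1 and NCOA3 were lost under median-ratio scaling, and without the block 0 of the 9 were called. NR3C1, the glucocorticoid receptor, was at most 0.09 TPM in the 4 libraries and was not tested.

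Among 13 tested steroid-metabolising enzymes, 3 were called higher and 4 lower (3 and 2 under median-ratio scaling, 2 and 2 without the block). AKR1C3, which makes testosterone from androstenedione, stood at 8.32 and 8.13 TPM (VEH) against 1.58 and 1.24 TPM (DHT) (log2 difference -1.94, SE 0.23, adjusted p 0.00017). AKR1C1, its paralog that inactivates progesterone and DHT, stood at 5.52 and 6.24 TPM (VEH) against 1.72 and 1.29 TPM (DHT) (log2 difference -1.46, SE 0.46, adjusted p 0.038), and HSD17B14 at 6.81 and 5.99 TPM (VEH) against 2.52 and 1.69 TPM (DHT) (log2 difference -1.26, SE 0.17, adjusted p 0.00033). SULT2B1, a steroid sulfotransferase, had a log2 difference of -0.34 (limma adjusted p 0.03). Higher were CYP11A1, the side-chain cleavage enzyme, at 0.32 and 0.14 TPM (VEH) against 2.99 and 3.3 TPM (DHT) (log2 difference 1.76, SE 0.19, adjusted p 9.1e-05), HSD17B11 (log2 difference 0.91, SE 0.14, adjusted p 0.0011) and HSD17B6 (log2 difference 0.64, SE 0.20, adjusted p 0.033), both oxidising hydroxysteroid dehydrogenases. SRD5A1, the 5-alpha-reductase that makes DHT, did not pass, at 14.8 and 13.9 TPM (VEH) against 17.7 and 17.2 TPM (DHT) (log2 difference 0.27, SE 0.17, adjusted p 0.27). The calls of AKR1C1 and SULT2B1 were lost under median-ratio scaling. Reads that fit both AKR1C genes could have been divided between them.

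The UGT2B enzymes attach glucuronic acid to androgens, and their members moved in opposite directions. UGT2B17 stood at 288 and 327 TPM (VEH) against 25.2 and 38.4 TPM (DHT) (log2 difference -3.26, SE 0.18, adjusted p 1.1e-06). UGT2B15 stood at 114 and 193 TPM (VEH) against 15.7 and 34.3 TPM (DHT) (log2 difference -2.62, SE 0.30, adjusted p 0.00013). Both were far lower with DHT in each replicate pair. UGT2B28 rose from below 1 TPM, at 0.07 and 0.83 TPM (VEH) against 4.21 and 9.04 TPM (DHT) (log2 difference 2.37, SE 0.16, adjusted p 5.7e-06), and UGT2B11 also rose, at 3.79 and 14.7 TPM (VEH) against 12.5 and 36.7 TPM (DHT) (log2 difference 1.38, SE 0.23, adjusted p 0.0013). These 4 of the 5 tested members were the ones called, and 2 of them without the block. For UGT2B11 the VEH and DHT libraries overlapped and the difference appeared only within pairs, with a limma adjusted p of 0.52 without the block. For UGT2B15 that p was 0.067. The genes are near-identical in sequence and their values are uncertain.

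Cholesterol synthesis and uptake rose as a group, with 20 of 26 tested members called higher and 2 lower (median log2 difference 0.77), and 17 and 1 without the block. HMGCS1, which makes HMG-CoA, stood at 45.2 and 58.7 TPM (VEH) against 139.6 and 159 TPM (DHT) (log2 difference 1.51, SE 0.19, adjusted p 0.00029). EBP, a sterol isomerase, stood at 48.2 and 49.8 TPM (VEH) against 119 and 144 TPM (DHT) (log2 difference 1.40, SE 0.11, adjusted p 1.6e-05). In both genes the DHT libraries lay above the VEH libraries. INSIG1, which holds SREBP in the ER (log2 difference 1.47, SE 0.15, adjusted p 6.4e-05), and the transcription factor SREBF2 (log2 difference 0.73, SE 0.22, adjusted p 0.031) also rose. INSIG2 fell, at 45.5 and 65.7 TPM (VEH) against 24 and 21.3 TPM (DHT) (log2 difference -1.24, SE 0.19, adjusted p 0.00094), as did the sterol reductase TM7SF2 at 645 and 460.3 TPM (VEH) against 413 and 296 TPM (DHT) (log2 difference -0.64, SE 0.08, adjusted p 0.00033). Of 5 tested genes of cholesterol efflux and LXR targets, 0 were called higher and 2 lower (0 and 1 without the block), namely the exporters ABCG1, at 26.3 and 22.5 TPM (VEH) against 7.57 and 6.31 TPM (DHT) (log2 difference -1.68, SE 0.21, adjusted p 0.00026), and ABCA1, at 0.9 and 1.1 TPM (VEH) against 0.17 and 0.26 TPM (DHT) (log2 difference -0.72, SE 0.17, adjusted p 0.0088). The calls of SREBF2, TM7SF2 and ABCA1 were lost without the block.

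Fatty acid and lipid synthesis showed 15 of 23 tested members higher and 3 lower (median log2 difference 0.71), 16 and 2 under median-ratio scaling and 10 and 0 without the block. FASN, fatty acid synthase, stood at 301 and 246 TPM (VEH) against 659 and 545 TPM (DHT) (log2 difference 1.14, SE 0.12, adjusted p 9.9e-05). ELOVL5, an elongase of polyunsaturated fatty acids, stood at 115 and 101 TPM (VEH) against 690.3 and 636 TPM (DHT) (log2 difference 2.61, SE 0.07, adjusted p 1.1e-08). ELOVL7, an elongase of saturated very long chains, stood at 9.82 and 10.4 TPM (VEH) against 55 and 87.8 TPM (DHT) (log2 difference 2.67, SE 0.15, adjusted p 1.5e-06). ACSL3, which activates fatty acids, stood at 54.8 and 69.7 TPM (VEH) against 212 and 277 TPM (DHT) (log2 difference 1.95, SE 0.14, adjusted p 7.3e-06). These 4 genes were at least 2-fold higher in both pairs. MOGAT2, an acyltransferase of triglyceride synthesis, also rose from below 1 TPM (log2 difference 1.88, SE 0.16, adjusted p 2.5e-05). Lower were AGPAT2 (log2 difference -0.62, SE 0.13, adjusted p 0.0054), DGAT2 (log2 difference -0.59, SE 0.12, adjusted p 0.0039) and ACACB (log2 difference -0.50, SE 0.16, adjusted p 0.042), of which AGPAT2 and DGAT2 build triglycerides and ACACB makes the malonyl-CoA that restrains fatty acid oxidation. All 3 lost their call without the block, and ACACB also under median-ratio scaling. SREBF1, the master regulator of the set, did not pass, at 514 and 386 TPM (VEH) against 521 and 459 TPM (DHT) (log2 difference 0.13, SE 0.16, adjusted p 0.58).

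In fatty acid oxidation, 4 of 25 members were higher and 6 lower, beside 10.6% and 16.8% of all tested genes (8 and 6 under median-ratio scaling, 2 and 5 without the block). ECI2 (log2 difference 1.05, SE 0.07, adjusted p 6.6e-06), ACADM (log2 difference 0.61, SE 0.14, adjusted p 0.0087), ACAA1 (log2 difference 0.42, SE 0.08, adjusted p 0.003) and AMACR, a racemase used as a stain for prostate cancer (log2 difference 0.89, SE 0.08, adjusted p 4.8e-05), were higher. CPT1C (log2 difference -1.44, SE 0.15, adjusted p 8e-05), both subunits of the trifunctional protein, HADHA (-0.54) and HADHB (-0.71), and ETFB (-0.60), an electron carrier, were lower. CPT1A, the gate to mitochondrial oxidation, did not pass, at 64 and 56.9 TPM (VEH) against 56.8 and 59.8 TPM (DHT) (log2 difference -0.05, SE 0.19, adjusted p 0.89).

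Genes of the secretory route leaned higher, mostly by small amounts. In ER folding and the unfolded protein response, 12 of 35 members were higher and 1 lower (median 0.36), 22 and 1 under median-ratio scaling and 6 and 0 without the block. PDIA5, a disulfide isomerase, stood at 26.1 and 24.1 TPM (VEH) against 59.4 and 70.3 TPM (DHT) (log2 difference 1.33, SE 0.11, adjusted p 1.5e-05), DERL3, of ER-associated degradation, at 1.09 and 1.35 TPM (VEH) against 3.44 and 4.46 TPM (DHT) (log2 difference 1.15, SE 0.16, adjusted p 0.00056), and ERO1A, an ER oxidase, at 7.92 and 7.77 TPM (VEH) against 18.1 and 15.9 TPM (DHT) (log2 difference 1.02, SE 0.19, adjusted p 0.0026). DNAJC10, an ER co-chaperone, rose by 0.87, and ERO1B, the paralog of ERO1A, fell (log2 difference -0.60, SE 0.19, adjusted p 0.037). The central regulators named here did not pass the test. HSPA5, the chaperone BiP, stood at 204 and 237 TPM (VEH) against 225 and 220.5 TPM (DHT) (log2 difference 0.02, SE 0.14, adjusted p 0.93), XBP1 at 94.5 and 105.3 TPM (VEH) against 100.4 and 130.1 TPM (DHT) (log2 difference 0.19, SE 0.14, adjusted p 0.34), ATF4 at 292 and 314 TPM (VEH) against 263 and 372 TPM (DHT) (log2 difference 0.05, SE 0.14, adjusted p 0.84) and DDIT3, or CHOP, at 45.3 and 39.8 TPM (VEH) against 26.2 and 27.7 TPM (DHT) (log2 difference -0.64, SE 0.30, adjusted p 0.14). XBP1 was called higher under median-ratio scaling (adjusted p 0.031). The ER stress element, CCAAT with CCACG 9 bases after it, was held by 10 of 40 promoters of this list (25.0%) and by 0.11% of all tested promoters, and HSPA5 and XBP1 were among the list members that held it.

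In ER entry and ER-to-Golgi transport, 23 of 60 members were higher and 1 lower (median 0.28), 41 and 1 under median-ratio scaling and 11 and 1 without the block. SEC11C, a signal peptidase subunit, stood at 164 and 139.5 TPM (VEH) against 555 and 451 TPM (DHT) (log2 difference 1.72, SE 0.20, adjusted p 0.00016). SSR3 (log2 difference 1.18, SE 0.10, adjusted p 2.3e-05), SEC61G (log2 difference 1.09, SE 0.12, adjusted p 0.00014) and TMED3 (log2 difference 0.83, SE 0.07, adjusted p 3.2e-05) of the translocon and of cargo sorting also rose, as did KDELR2, which returns ER proteins from the Golgi (log2 difference 0.80, SE 0.14, adjusted p 0.0016), and CREB3L4, a membrane-bound factor of secretory cells (log2 difference 0.50, SE 0.08, adjusted p 0.00097). SRP14, of the signal recognition particle, fell (log2 difference -0.56, SE 0.10, adjusted p 0.0026). Golgi glycosylation and sugar nucleotide genes split, with 10 of 34 higher and 6 lower (15 and 6 under median-ratio scaling, 5 and 2 without the block). ST6GALNAC1, which makes the sialyl-Tn antigen, stood at 5.03 and 2.22 TPM (VEH) against 52.5 and 45.1 TPM (DHT) (log2 difference 3.50, SE 0.19, adjusted p 1.1e-06). UAP1, which makes UDP-N-acetylglucosamine, stood at 50.7 and 44.1 TPM (VEH) against 209 and 222 TPM (DHT) (log2 difference 2.16, SE 0.09, adjusted p 2.2e-07). PGM3, 1 step before UAP1, stood at 36.1 and 36.2 TPM (VEH) against 102 and 102 TPM (DHT) (log2 difference 1.47, SE 0.15, adjusted p 8e-05), and GALNT7, which starts O-glycans, at 8.44 and 10.4 TPM (VEH) against 21.6 and 40 TPM (DHT) (log2 difference 1.55, SE 0.19, adjusted p 0.0002). The DHT libraries of all 4 lay above the VEH libraries. Other enzymes of the same families fell, namely GALNT10 (log2 difference -1.55, SE 0.20, adjusted p 0.00033), GALNT3 (log2 difference -0.92, SE 0.18, adjusted p 0.0032), MAN1A1 (log2 difference -1.77, SE 0.25, adjusted p 0.00052) and FUT8 (log2 difference -0.83, SE 0.16, adjusted p 0.0034). GCNT1, which branches O-glycans, did not pass (log2 difference 0.45, SE 0.22, adjusted p 0.15), but was called higher under median-ratio scaling.

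Prostate polyamine synthesis had 5 of 12 members higher and 0 lower (2 and 0 without the block). ODC1, the first enzyme, stood at 146 and 220 TPM (VEH) against 271 and 401 TPM (DHT) (log2 difference 0.87, SE 0.14, adjusted p 0.0011), and SMS, spermine synthase, at 96.5 and 106 TPM (VEH) against 336 and 401 TPM (DHT) (log2 difference 1.85, SE 0.07, adjusted p 1.2e-07). SAT1, which acetylates and removes polyamines, also rose, at 349 and 249 TPM (VEH) against 888 and 650.4 TPM (DHT) (log2 difference 1.36, SE 0.13, adjusted p 5.6e-05), and so did the arginase ARG2 (log2 difference 1.15, SE 0.14, adjusted p 0.00026). AMD1 did not pass (log2 difference 0.18, SE 0.09, adjusted p 0.16) but was called higher under median-ratio scaling. Replicate 2 was higher than replicate 1 in both groups for ODC1 and ARG2, and neither was called without the block (adjusted p 0.26 and 0.25). Zinc transporters and metallothioneins gave 6 of 24 higher and 4 lower (9 and 4 under median-ratio scaling, 1 and 2 without the block). SLC39A7, which releases zinc from the ER (log2 difference 0.85, SE 0.11, adjusted p 0.00027), SLC39A10 (log2 difference 0.57, SE 0.12, adjusted p 0.0046), SLC39A6 (log2 difference 0.56, SE 0.16, adjusted p 0.029) and the metallothionein MT1F (log2 difference 0.85, SE 0.21, adjusted p 0.013) were higher. SLC30A4, a zinc exporter into vesicles, stood at 168 and 170.5 TPM (VEH) against 99.1 and 94.9 TPM (DHT) (log2 difference -0.80, SE 0.16, adjusted p 0.0041), and SLC39A8, SLC39A13 and SLC39A2 fell by 0.58, 0.80 and 1.03 on the log2 scale. SLC39A1, the main zinc importer of the prostate (log2 difference 0.30, SE 0.12, adjusted p 0.08), and MT2A (log2 difference 0.50, SE 0.33, adjusted p 0.29) did not pass, though SLC39A1 was called higher under median-ratio scaling. Metallothionein genes are close copies of each other.

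Central carbon metabolism changed in parts. In glycolysis, the pentose phosphate path and lactate, 12 of 30 members were higher and 2 lower (median 0.20), and 3 and 0 without the block. LDHA, which makes lactate, stood at 200.1 and 299 TPM (VEH) against 479.9 and 672 TPM (DHT) (log2 difference 1.21, SE 0.10, adjusted p 1.6e-05). HK2, a hexokinase, stood at 3.19 and 4.02 TPM (VEH) against 7.87 and 12.5 TPM (DHT) (log2 difference 1.25, SE 0.22, adjusted p 0.0018), and PFKFB2, which activates phosphofructokinase, at 15.3 and 14.4 TPM (VEH) against 41 and 31.9 TPM (DHT) (log2 difference 1.23, SE 0.13, adjusted p 8.2e-05). ENO1 also rose (log2 difference 0.66, SE 0.09, adjusted p 0.00041), and the muscle phosphofructokinase PFKM (log2 difference -0.55, SE 0.14, adjusted p 0.012) and ALDOC (log2 difference -0.46, SE 0.11, adjusted p 0.0089) fell. The call of LDHA was lost without the block (adjusted p 0.095), while that of PFKFB2 was not (0.00076).

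In the citrate cycle and pyruvate entry, 5 of 33 members were higher and 3 lower (11 and 1 under median-ratio scaling, 2 and 1 without the block). MPC2, a subunit of the mitochondrial pyruvate carrier, stood at 109 and 98.2 TPM (VEH) against 266 and 358 TPM (DHT) (log2 difference 1.57, SE 0.20, adjusted p 0.0003). SLC25A10 (0.58), IDH1 (0.56) and DLAT (0.49) were higher on the log2 scale, and PDK2 (-0.68), SUCLA2 (-0.32) and SDHC (-0.28) lower. Of 69 nuclear genes of the respiratory chain, 4 were higher and 4 lower (8 and 0 under median-ratio scaling, 0 and 0 without the block). CYCS, ATP5MC1, NDUFB10 and NDUFV2 were higher by 0.37 to 0.57, and NDUFA3, COX4I1, NDUFB4 and SDHC lower by 0.28 to 0.40, on the log2 scale. Of the 13 mitochondrially encoded chain genes only MT-ND6 was called, higher at 336 and 358 TPM (VEH) against 666 and 549 TPM (DHT) (log2 difference 0.80, SE 0.17, adjusted p 0.005). The median over the 13 was 0.46 in pair 1 and -0.05 in pair 2, and DHT replicate 1 was the library with the highest mitochondrial share. MT-ND1 (log2 difference 0.23, SE 0.12, adjusted p 0.19) and MT-CO1 (log2 difference 0.03, SE 0.10, adjusted p 0.87) did not pass.

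Genes of the dividing cell were higher with DHT within each replicate pair. In mitosis 66 of 72 members were called higher and 0 lower (median 1.32), and in DNA replication and nucleotide supply 50 of 61 and 0 (median 0.92), against 10.6% of all genes higher. In each gene named here replicate 2 also was higher than replicate 1 within both groups. MKI67, the Ki-67 antigen, stood at 2.18 and 9.28 TPM (VEH) against 11.7 and 24.4 TPM (DHT) (log2 difference 1.65, SE 0.29, adjusted p 0.0021). CDK1, the mitotic kinase, stood at 33.2 and 97.1 TPM (VEH) against 95.1 and 197 TPM (DHT) (log2 difference 1.25, SE 0.16, adjusted p 0.00028). AURKB, of the chromosomal passenger complex, stood at 4.8 and 9.88 TPM (VEH) against 16.8 and 39 TPM (DHT) (log2 difference 1.75, SE 0.26, adjusted p 0.00065). In CDK1 the higher VEH library exceeded the lower DHT library, while in MKI67 and AURKB the groups did not overlap. RRM2, a ribonucleotide reductase subunit, stood at 8.87 and 35 TPM (VEH) against 55.1 and 113 TPM (DHT) (log2 difference 2.09, SE 0.41, adjusted p 0.0036), TYMS, thymidylate synthase, at 19.7 and 46.5 TPM (VEH) against 54.9 and 109.7 TPM (DHT) (log2 difference 1.33, SE 0.17, adjusted p 0.00033), and MCM2, of the replicative helicase, at 17.2 and 26 TPM (VEH) against 36.3 and 58.1 TPM (DHT) (log2 difference 1.08, SE 0.19, adjusted p 0.0023). CDC6 (log2 difference 1.77, SE 0.29, adjusted p 0.0012) and CDC45 (log2 difference 1.87, SE 0.26, adjusted p 0.00042), which load and fire origins, and the histone chaperone ASF1B (log2 difference 1.75, SE 0.29, adjusted p 0.0015) rose too. In mitosis the largest differences were in NCAPG (log2 difference 1.90, SE 0.23, adjusted p 0.00021), CDCA5 (log2 difference 1.84, SE 0.23, adjusted p 0.00028), MYBL2 (log2 difference 1.82, SE 0.32, adjusted p 0.002) and NDC80 (log2 difference 1.82, SE 0.33, adjusted p 0.0024), genes of condensin, cohesin protection, the G2 programme and the kinetochore. MCM6, whose promoter is printed above, stood at 14.6 and 23.8 TPM (VEH) against 28.6 and 42.5 TPM (DHT) (log2 difference 0.87, SE 0.13, adjusted p 0.00065).

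**Figure D3:**
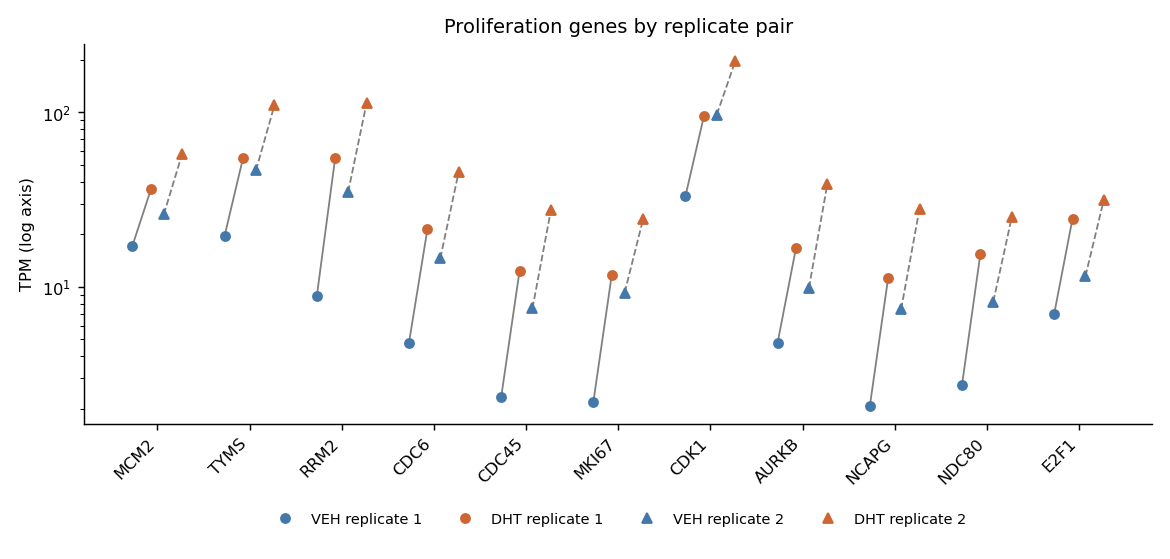
TPM on a log axis of 11 proliferation genes, with a line from VEH (blue) to DHT (orange) for replicate 1 (solid, circles) and replicate 2 (dashed, triangles). Every line rises, and replicate 2 starts higher than replicate 1 in each of the 11 genes.

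These lists depend on the pairing. Without the replicate block, 2 mitosis genes and 3 replication genes were called higher, and the adjusted p was 0.36 for MKI67, 0.41 for CDK1 and 0.30 for MCM2. The labels do not say what the replicate number marks. In bulk RNA, a larger share of cycling cells and more of these transcripts per cycling cell cannot be told apart. Of 26 G1 control genes, 10 were higher and 2 lower (0 and 1 without the block). E2F1, which switches on S-phase genes, stood at 6.98 and 11.5 TPM (VEH) against 24.7 and 31.7 TPM (DHT) (log2 difference 1.53, SE 0.17, adjusted p 0.00013), and CDC25A (log2 difference 1.41, SE 0.15, adjusted p 8e-05), CDKN3 (log2 difference 1.29, SE 0.18, adjusted p 0.00047) and E2F8 (log2 difference 1.27, SE 0.18, adjusted p 0.0006) rose with it. CDKN1A, the inhibitor p21, stood at 632 and 323 TPM (VEH) against 269 and 188 TPM (DHT) (log2 difference -1.01, SE 0.18, adjusted p 0.0022), and RBL2, a pocket protein of resting cells, at 136 and 116 TPM (VEH) against 73.7 and 61.5 TPM (DHT) (log2 difference -0.89, SE 0.17, adjusted p 0.0031). CCND1 did not pass, at 128 and 125 TPM (VEH) against 88.3 and 113 TPM (DHT) (log2 difference -0.34, SE 0.23, adjusted p 0.30). Of 56 DNA repair genes, 26 were higher and 5 lower (3 and 2 without the block). The higher members included EXO1 (log2 difference 1.52, SE 0.26, adjusted p 0.0018), RAD51AP1 (log2 difference 1.48, SE 0.23, adjusted p 0.001) and RAD54L (log2 difference 1.38, SE 0.24, adjusted p 0.0018), all of recombination, and the lower ones PMS2 (log2 difference -0.88, SE 0.22, adjusted p 0.014), BARD1 (log2 difference -0.83, SE 0.20, adjusted p 0.012), ERCC1 (log2 difference -0.58, SE 0.13, adjusted p 0.0081) and XPC (log2 difference -0.47, SE 0.14, adjusted p 0.034), of mismatch repair, the BRCA1 complex and excision repair.

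In ribosome biogenesis, 25 of 50 members were higher and 0 lower (median 0.32; 5 and 0 without the block). NOP16 (log2 difference 0.83, SE 0.09, adjusted p 0.00013), LYAR (log2 difference 0.72, SE 0.12, adjusted p 0.0017), RRP9 (log2 difference 0.66, SE 0.10, adjusted p 0.00092) and NOLC1 (log2 difference 0.65, SE 0.15, adjusted p 0.0085) rose, and NCL, or nucleolin, did not pass (log2 difference 0.41, SE 0.16, adjusted p 0.092) except under median-ratio scaling. Of 79 cytosolic ribosomal protein genes, 0 were higher and 17 lower (median -0.22), beside 10.6% and 16.8% of all tested genes. Under median-ratio scaling, and also without the block, 0 of them were called. RPS3A, RPS6, RPS27 and RPL14 had the largest falls, 0.63, 0.50, 0.43 and 0.42 on the log2 scale. Many ribosomal protein genes have processed pseudogenes that share their reads. MYC did not pass, at 69.6 and 106 TPM (VEH) against 62.4 and 132 TPM (DHT) (log2 difference 0.08, SE 0.14, adjusted p 0.70). Of 12 genes of its network, 1 was higher, MLX (log2 difference 0.30, SE 0.09, adjusted p 0.027), and 3 lower, MXI1 (log2 difference -0.89, SE 0.18, adjusted p 0.0046), MLXIPL (log2 difference -0.82, SE 0.22, adjusted p 0.019) and MXD4 (log2 difference -0.48, SE 0.11, adjusted p 0.0078), against 2 and 3 under median-ratio scaling and 0 and 1 without the block.

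For amino acid supply and ATF4 targets, 10 of 35 members were higher and 0 lower (16 and 0 under median-ratio scaling, 4 and 0 without the block). SLC43A1, a leucine transporter, stood at 3.09 and 4.62 TPM (VEH) against 9.62 and 25.4 TPM (DHT) (log2 difference 1.80, SE 0.20, adjusted p 0.0001), and SLC1A5, a glutamine transporter, at 27.7 and 24.9 TPM (VEH) against 56.6 and 77.4 TPM (DHT) (log2 difference 1.301, SE 0.19, adjusted p 0.00073). ATF3 (log2 difference 1.08, SE 0.24, adjusted p 0.0073) and the proline enzyme PYCR1 (log2 difference 0.98, SE 0.11, adjusted p 0.00016) also rose. ASNS (log2 difference 0.18, SE 0.18, adjusted p 0.49), DDIT4 (log2 difference -0.03, SE 0.10, adjusted p 0.89) and SLC7A5 (log2 difference 0.12, SE 0.20, adjusted p 0.70) did not pass. Of 20 aminoacyl-tRNA synthetases, which charge tRNAs, 9 were higher and 0 lower (14 and 0 under median-ratio scaling, 3 and 0 without the block), with CARS1, FARSB, IARS1 and YARS1 higher by 0.63 to 0.71 on the log2 scale. Of 34 proteasome genes 13 were higher and 1 lower (21 and 1 under median-ratio scaling, 4 and 1 without the block). PSMD8 (log2 difference 0.74, SE 0.09, adjusted p 0.00015), PSMA6, PSMA3 and PSMB2 rose, the last 3 by 0.65, 0.54 and 0.50, and PSME1, a subunit of the immune-type activator, fell (log2 difference -0.71, SE 0.09, adjusted p 0.00027). In autophagy and lysosome, 4 of 48 members were higher and 11 lower (7 and 9 under median-ratio scaling, 1 and 1 without the block). ATG3, which conjugates LC3 to lipid, had the largest fall among them, at 273 and 263 TPM (VEH) against 75.2 and 75 TPM (DHT) (log2 difference -1.82, SE 0.08, adjusted p 2.2e-07). PSAP, CTSB and TFEB fell by 0.60, 0.58 and 0.57, and NPC1, WIPI1, GLA and MCOLN1 rose by 1.06, 1.02, 0.58 and 0.50. SQSTM1 did not pass (log2 difference 0.03, SE 0.12, adjusted p 0.88).

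Among interferon-stimulated genes, 1 of 32 was higher, 11 were lower and 20 were not called (3 and 7 called under median-ratio scaling, 0 and 3 without the block). BST2, or tetherin, stood at 4.41 and 4.59 TPM (VEH) against 1.11 and 1.04 TPM (DHT) (log2 difference -1.41, SE 0.19, adjusted p 0.00045), and IFI6 at 16.1 and 12.6 TPM (VEH) against 5.7 and 5.59 TPM (DHT) (log2 difference -1.20, SE 0.15, adjusted p 0.00025). IFITM1 (-0.77) and MX1 (-0.73) were lower as well, and OAS3 higher, at 2.14 and 2.95 TPM (VEH) against 5.08 and 7.61 TPM (DHT) (log2 difference 1.04, SE 0.18, adjusted p 0.0017). ISG15 did not pass (log2 difference -0.54, SE 0.23, adjusted p 0.10). In MHC class I presentation, 1 of 16 was higher, 5 were lower and 10 were not called (2 and 5 called under median-ratio scaling, 0 and 1 without the block). HLA-B stood at 124 and 85 TPM (VEH) against 65.7 and 44.4 TPM (DHT) (log2 difference -0.92, SE 0.16, adjusted p 0.0018) and HLA-C at 206 and 129.9 TPM (VEH) against 102 and 95.4 TPM (DHT) (log2 difference -0.72, SE 0.12, adjusted p 0.0013). B2M, their shared light chain, moved the other way, at 575 and 591 TPM (VEH) against 820.5 and 945 TPM (DHT) (log2 difference 0.59, SE 0.14, adjusted p 0.0089). TAPBP, which loads peptide, fell (log2 difference -0.49, SE 0.15, adjusted p 0.031). The HLA genes are similar in sequence and share reads, and without the block HLA-B, HLA-C and TAPBP were not called.

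Epithelial keratins and adhesion genes gave 8 of 37 higher and 7 lower (4 and 3 without the block). KRT8 (log2 difference 0.33, SE 0.10, adjusted p 0.028) and KRT18 (log2 difference 0.64, SE 0.09, adjusted p 0.00055), the luminal keratins, rose slightly. KRT19 stood at 7.17 and 3.5 TPM (VEH) against 40.7 and 22.3 TPM (DHT) (log2 difference 2.36, SE 0.27, adjusted p 0.00013) and the laminin chain LAMC1 at 89.6 and 81.4 TPM (VEH) against 439.8 and 350.4 TPM (DHT) (log2 difference 2.19, SE 0.20, adjusted p 3.3e-05). CLDN8 (log2 difference 1.01, SE 0.14, adjusted p 0.00049) and TJP1 (log2 difference 0.70, SE 0.18, adjusted p 0.015) of the tight junction rose as well. CD24, a mucin-like adhesion protein, stood at 29.1 and 53.9 TPM (VEH) against 8.32 and 8.24 TPM (DHT) (log2 difference -2.13, SE 0.24, adjusted p 0.00013). LAMB1 (log2 difference -1.37, SE 0.13, adjusted p 5e-05) and the integrins ITGB4 (log2 difference -1.03, SE 0.23, adjusted p 0.0079) and ITGA3 (log2 difference -0.95, SE 0.23, adjusted p 0.01) fell, and CDH1, or E-cadherin, did not pass (log2 difference -0.08, SE 0.25, adjusted p 0.86). The laminin chains thus moved in opposite directions. Of 16 tested mesenchymal and matrix genes 0 were higher and 6 lower (median -0.49), 1 and 6 under median-ratio scaling and 0 and 2 without the block. FN1, fibronectin, stood at 630.2 and 377 TPM (VEH) against 281 and 186 TPM (DHT) (log2 difference -1.09, SE 0.14, adjusted p 0.00033), COL5A2 at 13.4 and 20.5 TPM (VEH) against 2.81 and 3.92 TPM (DHT) (log2 difference -2.02, SE 0.14, adjusted p 5.3e-06) and COL1A1 at 32.5 and 25.9 TPM (VEH) against 11.4 and 15.6 TPM (DHT) (log2 difference -1.07, SE 0.16, adjusted p 0.00078). MMP16, a membrane protease, fell too (log2 difference -1.82, SE 0.25, adjusted p 0.0004). Fibroblast markers summed to 49.7 and 51.3 TPM (VEH) against 20.5 and 28.2 TPM (DHT), nearly all of it from COL1A1 and VIM, and DCN was listed at 0 in all 4 libraries. Their part in this result was not tested.

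Neuroendocrine and neuronal genes were mostly lower, with 2 of 14 tested higher and 8 lower (median -0.65; 1 and 6 without the block), 19 further members being too low to test. DDC, which makes dopamine and serotonin (chromosome 7, 50458442 to 50565405), stood at 840.3 and 568 TPM (VEH) against 110.2 and 72.4 TPM (DHT) (log2 difference -2.94, SE 0.07, adjusted p 1.6e-09). ENO2, neuron-specific enolase, stood at 62.9 and 55.1 TPM (VEH) against 16.1 and 15.6 TPM (DHT) (log2 difference -1.83, SE 0.14, adjusted p 1.1e-05), and NTS, neurotensin, at 6.41 and 3.3 TPM (VEH) against 0.35 and 0.12 TPM (DHT) (log2 difference -2.20, SE 0.30, adjusted p 0.0004). STMN3, a tubulin-binding protein, fell (log2 difference -1.02, SE 0.10, adjusted p 5.7e-05). These 4 genes were lower in both pairs with no overlap of the groups, as were 6062 of all 16636 tested genes. MAP2 (log2 difference 1.25, SE 0.16, adjusted p 0.00034) and UCHL1 (log2 difference 0.84, SE 0.26, adjusted p 0.037) rose. SYP did not pass, at 1.82 and 1.17 TPM (VEH) against 2.3 and 1.47 TPM (DHT) (log2 difference 0.21, SE 0.15, adjusted p 0.33), and CHGA and NPY were at 0. Of 30 axon guidance and ephrin genes 1 was higher and 13 lower (3 and 10 under median-ratio scaling, 1 and 5 without the block). SEMA3C, a secreted semaphorin, was the higher one, at 31.7 and 32 TPM (VEH) against 75.6 and 71.6 TPM (DHT) (log2 difference 1.18, SE 0.15, adjusted p 0.00028). SEMA6A (log2 difference -1.63, SE 0.19, adjusted p 0.00018), SLIT1 (log2 difference -1.49, SE 0.20, adjusted p 0.00038), PLXNB1 (log2 difference -0.89, SE 0.12, adjusted p 0.00041) and EFNB2 (log2 difference -0.77, SE 0.19, adjusted p 0.012) fell, and NRP1 did not pass (log2 difference -0.36, SE 0.25, adjusted p 0.32).

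Growth factors and receptor tyrosine kinases gave 2 of 20 higher and 7 lower (5 and 6 under median-ratio scaling, 2 and 2 without the block). IGF1R, the insulin-like growth factor receptor, stood at 3.11 and 3.73 TPM (VEH) against 14.5 and 16.9 TPM (DHT) (log2 difference 1.92, SE 0.15, adjusted p 1.3e-05), and its ligand IGF1 at 0.18 and 0.62 TPM (VEH) against 1.77 and 2.47 TPM (DHT) (log2 difference 1.17, SE 0.22, adjusted p 0.0028). IGFBP3, which binds the ligand, went the other way, at 348 and 287 TPM (VEH) against 111 and 124 TPM (DHT) (log2 difference -1.42, SE 0.17, adjusted p 0.00018). RET (log2 difference -1.005, SE 0.20, adjusted p 0.0039), FGFR1 (log2 difference -1.02, SE 0.29, adjusted p 0.025) and FGF13 (log2 difference -0.77, SE 0.16, adjusted p 0.0057) fell, and EGFR did not pass (log2 difference 0.42, SE 0.20, adjusted p 0.14) except under median-ratio scaling. PI3K and mTOR signalling had 5 of 31 higher and 5 lower (8 and 5 under median-ratio scaling, 4 and 0 without the block). INPP4B, a lipid phosphatase that opposes AKT, stood at 0.41 and 0.81 TPM (VEH) against 3.64 and 6.31 TPM (DHT) (log2 difference 1.87, SE 0.21, adjusted p 0.00015). EIF4EBP1, a brake on translation (log2 difference 0.91, SE 0.10, adjusted p 9.9e-05), and the kinase RPS6KA3 (log2 difference 1.36, SE 0.22, adjusted p 0.0011) rose, while DEPTOR (log2 difference -0.83, SE 0.16, adjusted p 0.0029), PIK3CD (log2 difference -0.62, SE 0.17, adjusted p 0.02) and PIK3R3 (log2 difference -0.61, SE 0.17, adjusted p 0.021) fell. Of 14 cell-surface drug targets, 3 were higher and 3 lower (5 and 2 under median-ratio scaling, 0 and 1 without the block). FOLH1, or PSMA, stood at 989 and 984 TPM (VEH) against 675 and 647 TPM (DHT) (log2 difference -0.58, SE 0.11, adjusted p 0.0033). ERBB2 (log2 difference -0.66, SE 0.20, adjusted p 0.033) and NECTIN4 (log2 difference -0.42, SE 0.13, adjusted p 0.035) fell, while PSCA (log2 difference 0.65, SE 0.18, adjusted p 0.024), CD46 (log2 difference 0.33, SE 0.10, adjusted p 0.036) and the zinc transporter SLC39A6 rose.

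In the WNT, Notch, BMP and TGF-beta list, 6 of 36 were higher and 13 lower (6 and 11 under median-ratio scaling, 4 and 6 without the block). LEF1, a nuclear partner of beta-catenin, stood at 11.7 and 13.7 TPM (VEH) against 2.87 and 3.79 TPM (DHT) (log2 difference -1.67, SE 0.19, adjusted p 0.00014), and ID3, a BMP target, at 242 and 159.6 TPM (VEH) against 109 and 92.2 TPM (DHT) (log2 difference -0.96, SE 0.10, adjusted p 8.7e-05). NOTCH3 (-1.004), SMAD7 (-0.76), ID1 (-0.61) and INHBB were lower too. HES6 (log2 difference 1.26, SE 0.15, adjusted p 0.00021), the BMP receptor genes BMPR1B (1.002) and BMPR1A (0.98), and FZD5 (0.95) were higher, and HES1 did not pass (log2 difference 0.20, SE 0.16, adjusted p 0.39). Of 24 immediate early genes 2 were higher and 7 lower (5 and 7 under median-ratio scaling, 0 and 3 without the block), with JUN at 41.2 and 35.6 TPM (VEH) against 21.5 and 20.1 TPM (DHT) (log2 difference -0.85, SE 0.11, adjusted p 0.00026), ZFP36L1 (-1.05), BTG2 (-0.87) and FOSL2 (-0.82) lower and CCN1 (0.56) and ATF3 higher. FOS did not pass (log2 difference -0.12, SE 0.19, adjusted p 0.70), and EGR1 was too low to test. Of 17 glucocorticoid-shared targets 4 were higher and 1 lower (6 and 1 under median-ratio scaling, 2 and 0 without the block). Beside FKBP5 these were PER1 (log2 difference 0.78, SE 0.14, adjusted p 0.0023), SLC19A2 (log2 difference 0.76, SE 0.09, adjusted p 0.00024) and ZBTB16 (log2 difference 0.78, SE 0.21, adjusted p 0.019), with DUSP1 lower (log2 difference -0.38, SE 0.11, adjusted p 0.031) and SGK1 not passing (log2 difference -0.68, SE 0.25, adjusted p 0.064). Of 19 circadian genes 2 were higher, PER1 and BHLHE40 (log2 difference 0.77, SE 0.16, adjusted p 0.0057), and 4 lower (2 and 2 without the block), among them CIART, DBP and NFIL3, which fell by 0.76, 0.76 and 0.56.

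Of 27 p53 targets, 1 was higher and 12 lower (3 and 10 under median-ratio scaling, 0 and 5 without the block). Beside CDKN1A and BTG2, TP53I3 stood at 23.3 and 13.6 TPM (VEH) against 6.01 and 3.93 TPM (DHT) (log2 difference -1.68, SE 0.17, adjusted p 6.7e-05) and PLK2 at 78 and 95.4 TPM (VEH) against 22.8 and 39.8 TPM (DHT) (log2 difference -1.48, SE 0.19, adjusted p 0.00027). GDF15, a stress cytokine, rose within pairs, at 196 and 82.7 TPM (VEH) against 296 and 179.9 TPM (DHT) (log2 difference 0.85, SE 0.18, adjusted p 0.0051), while the groups overlapped. MDM2 did not pass (log2 difference -0.43, SE 0.18, adjusted p 0.095). Among 28 apoptosis regulators, 2 were higher and 6 lower (6 and 3 under median-ratio scaling, 1 and 2 without the block). BMF, which promotes death of detached cells, stood at 35.3 and 29.7 TPM (VEH) against 11.3 and 9.05 TPM (DHT) (log2 difference -1.58, SE 0.14, adjusted p 2.5e-05). BBC3 (log2 difference -0.78, SE 0.15, adjusted p 0.0036), BID (log2 difference -0.82, SE 0.13, adjusted p 0.00097) and BIK (log2 difference -0.54, SE 0.14, adjusted p 0.014) fell, PMAIP1 (log2 difference 0.70, SE 0.15, adjusted p 0.0054) and CYCS rose, BCL2L11 did not pass (log2 difference -0.37, SE 0.20, adjusted p 0.20) and BCL2 was too low to test. BIK was not called under median-ratio scaling. Of 29 NRF2 antioxidant genes 4 were higher and 9 lower (7 and 7 under median-ratio scaling, 2 and 2 without the block). PRDX6, a peroxidase, stood at 495 and 454 TPM (VEH) against 1403 and 1199 TPM (DHT) (log2 difference 1.45, SE 0.07, adjusted p 3.5e-07), and TXNRD1 (0.75), GSR (0.78) and ME1 (0.80) were higher. GCLC (-0.87), GSTA1 (-1.002), GSTK1 (-0.60), FTL (-0.59) and NQO1 (-0.36) were lower, the last not under median-ratio scaling (adjusted p 0.086).

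Of 21 xenobiotic genes 4 were higher and 2 lower (6 and 2 under median-ratio scaling, 3 and 1 without the block). ABCC4, a drug and prostaglandin exporter, stood at 35.4 and 32.7 TPM (VEH) against 100.4 and 114 TPM (DHT) (log2 difference 1.62, SE 0.15, adjusted p 4.6e-05), and ALDH1A3, which makes retinoic acid, at 18.9 and 13.2 TPM (VEH) against 85.9 and 75.3 TPM (DHT) (log2 difference 2.28, SE 0.12, adjusted p 1.1e-06). CYP4F8 (log2 difference 1.35, SE 0.17, adjusted p 0.00026) and CYP3A43 (log2 difference 0.58, SE 0.18, adjusted p 0.038) rose from about 1 TPM or less. ABCG2 (log2 difference -1.07, SE 0.17, adjusted p 0.00095) and CYP1A1 (log2 difference -0.77, SE 0.17, adjusted p 0.0073) fell and NAT1 did not pass (log2 difference 0.14, SE 0.14, adjusted p 0.48). Of 24 hypoxia genes 6 were higher and 4 lower (3 and 3 without the block). NDRG1 stood at 78.9 and 50.8 TPM (VEH) against 200.2 and 174 TPM (DHT) (log2 difference 1.54, SE 0.17, adjusted p 9.6e-05) and EGLN3, an oxygen-sensing hydroxylase, at 69.5 and 45.1 TPM (VEH) against 17.9 and 11.3 TPM (DHT) (log2 difference -1.91, SE 0.18, adjusted p 4.8e-05). BNIP3 (log2 difference 0.39, SE 0.10, adjusted p 0.015) and ANKRD37 (log2 difference 0.72, SE 0.19, adjusted p 0.019) rose and BNIP3L (log2 difference -0.48, SE 0.15, adjusted p 0.038) fell. In calcium handling 4 of 33 were higher and 10 lower (2 and 4 without the block). Against the rise of TRPM8, CAMK2N1, an inhibitor of CaMKII, fell, at 439 and 353 TPM (VEH) against 93.8 and 47.4 TPM (DHT) (log2 difference -2.54, SE 0.17, adjusted p 4.6e-06). ITPR1, the ER calcium release channel, stood at 28.5 and 22.6 TPM (VEH) against 8.7 and 6.79 TPM (DHT) (log2 difference -1.60, SE 0.17, adjusted p 9.7e-05). ORAI2 (-0.96) and ATP2A3 (-0.81) also fell, and CACNG4 (1.14), CAMK2D (0.57) and TRPM4 (0.37) rose.

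Of 49 chromatin writers and erasers 3 were higher and 10 lower (7 and 9 under median-ratio scaling, 0 and 5 without the block). EZH2 (log2 difference 0.83, SE 0.10, adjusted p 0.0002), DNMT1 (log2 difference 0.49, SE 0.12, adjusted p 0.013) and PRMT5 (log2 difference 0.56, SE 0.16, adjusted p 0.025) rose, and lost their call without the block. KDM6A, a demethylase that opposes EZH2, stood at 174 and 184 TPM (VEH) against 98.4 and 103 TPM (DHT) (log2 difference -0.82, SE 0.13, adjusted p 0.0012). KMT2C (log2 difference -1.02, SE 0.25, adjusted p 0.011), TET2 (log2 difference -0.91, SE 0.19, adjusted p 0.0046) and KDM5B (log2 difference -0.78, SE 0.18, adjusted p 0.0076) fell. Among 21 prostate and cancer noncoding RNAs 3 were higher and 2 lower (5 and 1 under median-ratio scaling, 2 and 0 without the block). Beside LINC00844, ARLNC1 stood at 0.22 and 0.19 TPM (VEH) against 3.63 and 3.64 TPM (DHT) (log2 difference 1.94, SE 0.17, adjusted p 2.5e-05) and PCAT1 at 4.69 and 6.39 TPM (VEH) against 9.23 and 10.6 TPM (DHT) (log2 difference 0.75, SE 0.13, adjusted p 0.0018). FTX (log2 difference -0.63, SE 0.17, adjusted p 0.019) and EPB41L4A-AS1 (log2 difference -0.44, SE 0.14, adjusted p 0.035) fell, and EPB41L4A-AS1 not under median-ratio scaling. PCA3, the noncoding RNA of a urine test (log2 difference -0.31, SE 0.30, adjusted p 0.48), NEAT1 (log2 difference 0.10, SE 0.17, adjusted p 0.71), MALAT1 (log2 difference -0.72, SE 0.45, adjusted p 0.27) and GAS5 (log2 difference -0.61, SE 0.22, adjusted p 0.068) did not pass.

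Every count of list members is to be read beside the 10.6% of all tested genes that were higher and the 16.8% that were lower. Nothing particular to the list is read from the counts of fatty acid oxidation, PI3K and mTOR signalling, autophagy and lysosome, chromatin or cell-surface targets. The same holds for apoptosis, the circadian clock, the citrate cycle, the MYC network, cytosolic ribosomal proteins, and keratins and adhesion genes. It also holds for xenobiotic genes and for prostate and cancer noncoding RNAs.

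**Figure D4:**
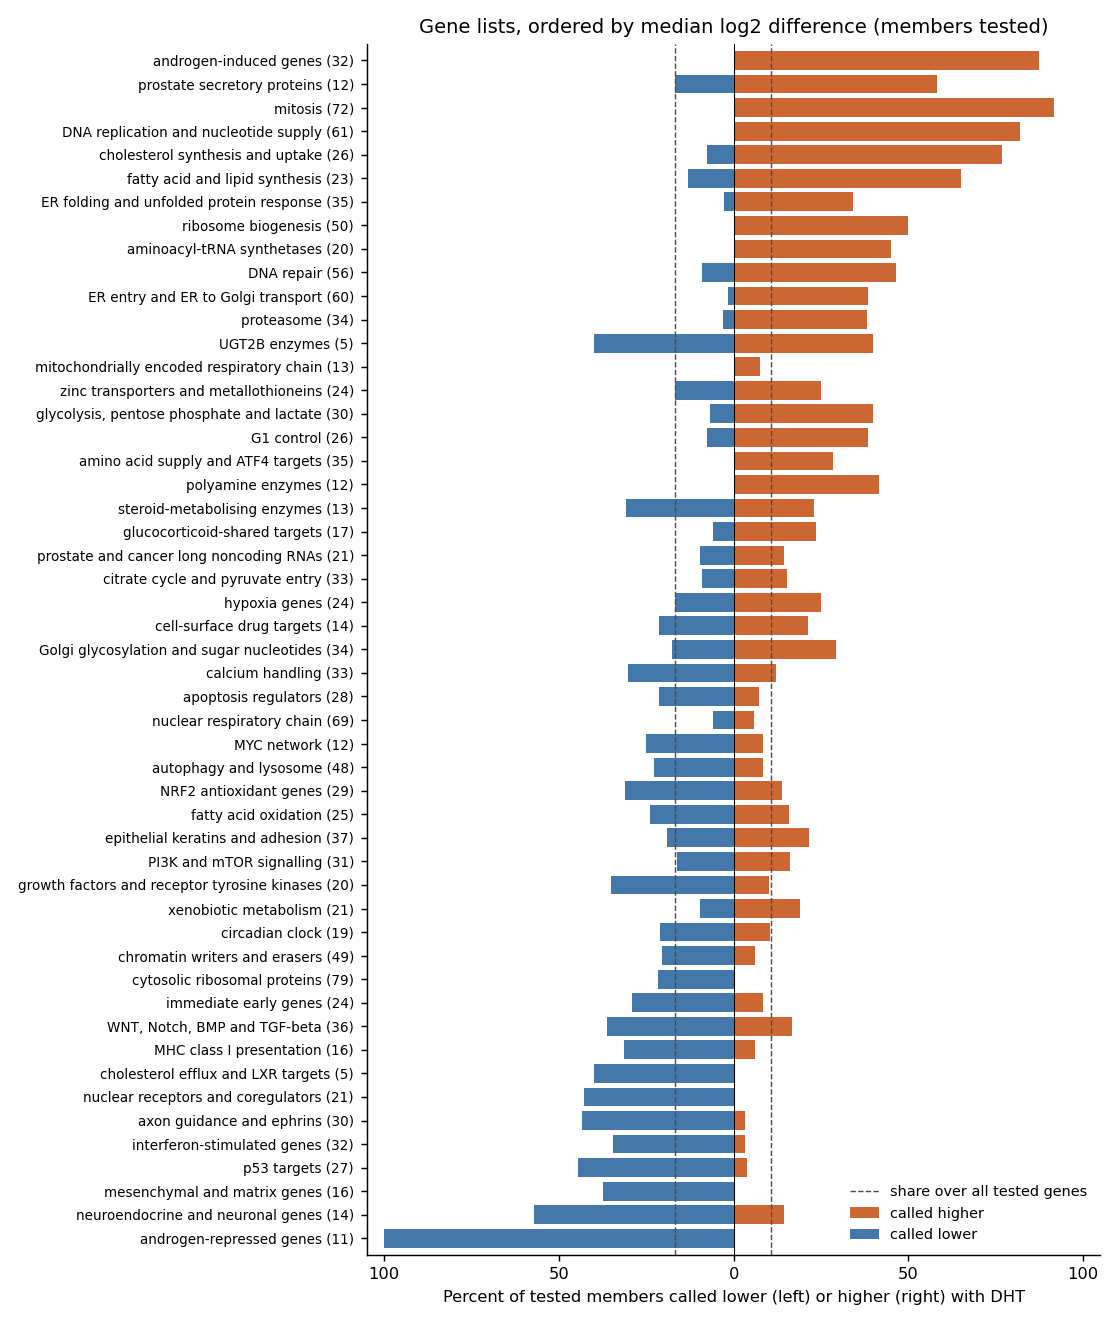
Percent of tested members called higher (orange, right) and lower (blue, left) with DHT in 51 gene lists, ordered by median log2 difference, with the number tested in brackets and dashed lines at the shares of all tested genes, 10.6% higher and 16.8% lower. Androgen-induced genes, prostate secretory proteins, mitosis and replication stand at the top and androgen-repressed, neuronal and mesenchymal genes at the bottom.

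How much of the response remains when an antagonist competes for the receptor was measured by the difference from the DHT response in its presence, averaged over BIC, ENZ and APA at 10 µM each. The difference was called for 2621 of 16636 genes (15.8%, limma), 1343 with a higher and 1278 with a lower DHT effect without antagonist. Genes called higher with DHT alone had a median log2 difference of 0.65, and 0.038 with an antagonist, and those called lower -0.68 and -0.15, the first of each pair being moved away from 0 by the selection. KLK2 changed by 6.57 alone and by 1.07 with BIC, 1.08 with ENZ and 2.40 with APA. For KLK3 these values were 6.42, 1.17, 1.34 and 2.77, and for PGC 4.95, 0.76, 0.22 and 0.30. PLA2G2A changed by -4.37 alone and by -0.54, -0.14 and -0.11 with BIC, ENZ and APA. In all 4 genes the values with an antagonist lay much nearer to 0. This follows largely from the selection, because the 4 are among the genes with the largest difference between the 2 settings. For KLK2 and KLK3 the value was highest with APA, but the antagonists were not compared with each other by a test. The differences between the 2 settings were 5.06 (SE 0.47, limma adjusted p 9.9e-05) for KLK2 and -4.10 (SE 0.11, limma adjusted p 1.1e-08) for PLA2G2A.

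**Figure D5:**
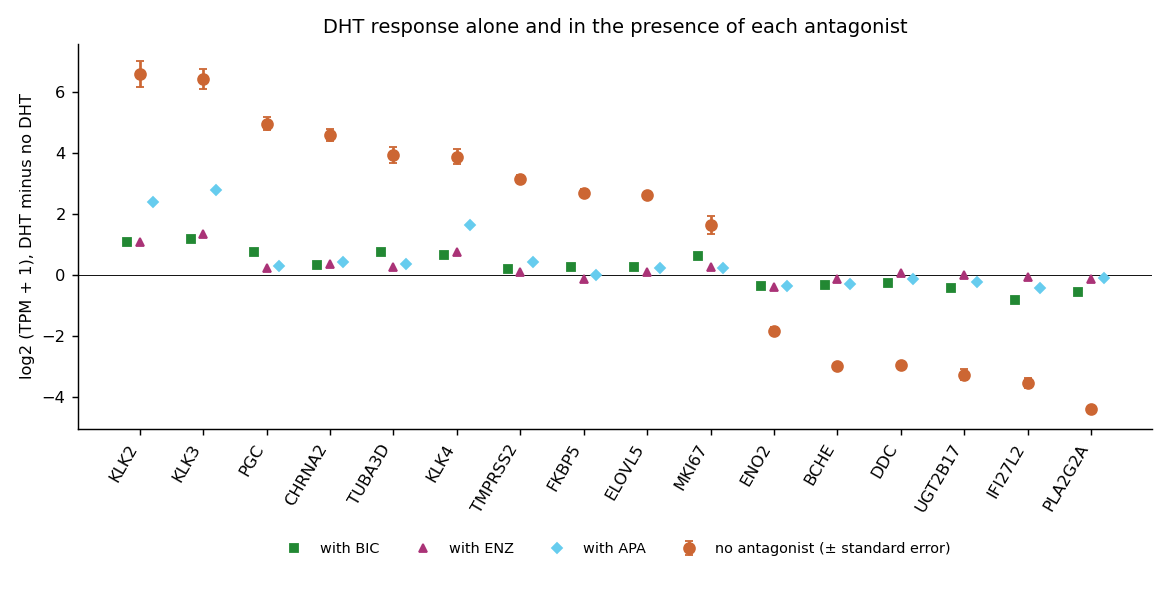
Log2(TPM + 1) difference with DHT of 16 genes without antagonist (orange, bars are standard errors) and with BIC (green), ENZ (purple) or APA (light blue). The values with an antagonist lie nearer to 0 than those without for all 16 genes, several of which are named for a large difference of this kind. Of the 3 antagonists APA goes with the highest value in KLK2 and KLK3, which was not tested.

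By list, the median log2 difference went from 2.06 alone to 0.058 with an antagonist in androgen-induced genes, from -2.54 to -0.31 in androgen-repressed genes, from 0.77 to -0.045 in cholesterol synthesis and from 0.71 to -0.12 in lipid synthesis. In mitosis it went from 1.32 to 0.34, with the difference called for 38 of 72 genes, and in replication from 0.92 to 0.083, called for 43 of 61. Among nuclear receptors and coregulators it was -0.38 alone and -0.29 with an antagonist, and the difference was called for 0 of 21, so a smaller fall under an antagonist was not shown.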

How the data were processed

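Polyadenylated RNA of LNCaP cells was sequenced in 16 libraries (8 groups of 2), with 125 bp paired reads from a strand-specific kit and about 40 M read pairs per library per the labels. Per the submitters' processing notes the authors used FastQC 0.11.9, Trim Galore 0.6.5, STAR 2.7.2b and RSEM 1.3.3 on GRCh38. The authors deposited TPM values for 60642 gene symbols, 26439 of which were 0 in every library. TPM keeps no read counts, so the counting error of single values is unknown. Whether strand was used in the counting is not given in the sources used here, so overlapping and antisense genes are uncertain. The table held 0 columns of other samples.

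Values were taken as log2(TPM + 1), which understates the change of genes near 0, for 16636 genes, each at 1 TPM or above in 2 libraries or more. The limma fit (3.58.1 in R 4.3.3, trended variance) held group and replicate number over all 16 libraries, so the 12 libraries with an antagonist share in the estimate of the spread. The fit was also run on data simulated from this same model. Such a run checks the code and cannot test the block, the scaling or the assumed spread. Replicate numbers were treated as pairs because the comparison was defined that way. Deviations from the group means correlated across genes in all 28 pairs of groups (0.204 to 0.635, DHT with VEH 0.443). The labels do not say what the numbers mark, and list counts without the pairing are given where they moved by 1.5 times or more. P-values measure the spread between these libraries, which are labelled as biological replicates. Genes were called at a Benjamini-Hochberg adjusted p under 0.05. Tables and figures were made in Python 3.11.15 with pandas 2.3.3 and numpy 2.4.6.

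Genes named were starred key members of 51 hand-written lists, the 15 called genes with the largest differences in each direction (mean TPM of at least 5 and no overlap), up to 4 called members per list and direction, the 5 genes per direction with the largest difference from the response with an antagonist, and the 5 most abundant called genes per direction. Some genes that the rule took are not reported here. The comparison, lists and rules were chosen with earlier results of these data known. Gene positions and promoters are from RefSeq (GRCh38.p14), matched by symbol. Alternatives were other scalings, filters, pseudocounts, fits without the block or with 4 libraries, and leaving out each library.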

Additional observations from a re-analysis of the deposited data

Results flagged for a closer look

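The DHT response without antagonist differed from the mean response with BIC, ENZ or APA for 2621 genes by the limma contrast of the difference itself. On the log2(TPM + 1) scale, the DHT effect without antagonist exceeded that with one by 5.06 in KLK2, 4.66 in KLK3, 4.52 in PGC, 4.19 in CHRNA2 and 3.48 in TUBA3D. It was lower by the same contrast in PLA2G2A (-4.10), IFI27L2 (-3.11), UGT2B17 (-3.04) and DDC (-2.83). SNORA78, a small nucleolar RNA, had a fitted value of -3.79 in this contrast, which is no measure of a fold because it rests on 2 DHT libraries in which it was listed at 0.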

How the results depend on the processing

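The number of genes called depended most on the pairing. With no replicate block, limma called 1709 genes (604 higher and 1105 lower) in place of 4559, and 603 in place of 2621 for the difference from the response with an antagonist. In a fit of only the 4 DHT and VEH libraries it called 3045 with the block (1224 higher and 1821 lower) and 173 without it (91 and 82). Median-ratio scaling raised the genes called higher from 1762 to 2868 and gave 5046 in all. Leaving out 1 DHT or VEH library, with the lone library of that group assumed to vary like the other groups, gave 2581 to 3021 calls (1034 to 1324 higher and 1417 to 1904 lower) and 1203 to 1750 for the difference, the lowest being without VEH replicate 1 for the calls and without VEH replicate 2 for the difference. Counts under a TPM minimum of 5 (3738), no filter (4273), no trend (4481), a pseudocount of 0.1 (4606) and removal of mitochondrial genes (4608) stayed within 1.5 times. Of the 310 named genes that were called, 153 kept their call with no replicate block, 287 under median-ratio scaling, 256 in the 4 libraries with the block, 51 in those without it, and 222 to 237 with 1 library left out.

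None of the 310 named genes that were called reversed under these alternatives. Fits without the block or trend, with another filter or with only 4 libraries leave the log2 difference unchanged, so no reversal was possible there. Only the scaling, the pseudocount, removal of mitochondrial genes and leaving out a library could change it. Among named genes that were not called, the sign changed when 1 library was left out for ASNS (-0.17 to 0.53), ATF4 (-0.21 to 0.30), CAMKK2 (-0.0035 to 0.31), HSPA5 (-0.12 to 0.16), MT-CO1 (-0.15 to 0.20), MT2A (-0.0043 to 1.01), MYC (-0.10 to 0.27), NEAT1 (-0.013 to 0.21), SLC7A5 (-0.013 to 0.25) and SREBF1 (-0.011 to 0.28). It changed there and under median-ratio scaling for CDH1 (-0.24 to 0.087, and 0.059) and CPT1A (-0.17 to 0.069, and 0.084). For DDIT4 (-0.18 to 0.13) it changed also under median-ratio scaling (0.11) and with mitochondrial genes removed (0.013). The cause was not tested. TPM gives no depth, so no limit of detection can be stated for genes listed at 0.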
